A study of Mus musculus with 9 samples.

Results

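The nuclear-encoded subunits of the mitochondrial respiratory chain were followed across 9 RNA-seq libraries of mouse lung. Genes were taken by name: symbols beginning with Nduf and a letter a, b, c, s or v before a number (complex I, except Ndufa4 and Ndufa4l2, which belong with complex IV), Uqcr (complex III), Cox4 to Cox8 (complex IV) and Atp5 (complex V, the ATP synthase), together with Sdha, Sdhb, Sdhc and Sdhd (complex II) and the genes of cytochrome c, Cycs, and cytochrome c1, Cyc1. Of 56263 genes in the table, 104 carried such a name, and 13 of them ended in a pseudogene suffix and were left out, which left 91 subunit genes. They comprised 38 genes of complex I, 4 of complex II, 9 of complex III, 21 of complex IV, 18 of complex V and Cycs. Of the 91, 6 genes, namely Ndufa11b, Ndufs6b, Cox6c2, Cox7b2, Cox8c and a second gene record named Atp5o, were listed at 0 in all 9 libraries, and the remaining 85 entered the tests. The names were checked against the mouse GENCODE M21 annotation (GRCm38), which held all 91, 89 of them under the same symbol. It still marks 4 of the 91 as processed pseudogenes, namely Ndufa11b, Ndufs6b, Cox6c2 and Ndufb4c, and of these only Ndufb4c was tested. Usmg5 and Atp5f1 are its symbols for Atp5md and Atp5pb.

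All animals were male wild-type BALB/c mice aged 6 to 8 weeks at purchase, and lung tissue was profiled. The QJHTD group (3 libraries) received Qing-Jin-Hua-Tan decoction, a multi-herb extract of traditional Chinese medicine, at the highest dose of the study by gavage ahead of each day's exposure to cigarette smoke. The model group (3 libraries), labelled as COPD (chronic obstructive pulmonary disease), had the same exposure with vehicle. Both groups were exposed 3 times daily to the smoke of 6 cigarettes, 30 min each time, and were given 20 µg of lipopolysaccharide (LPS, a bacterial cell-wall component) instilled into the trachea on days 1 and 14 of the 42-day experiment. The control group (3 libraries), labelled as normal, had neither smoke nor LPS. Groups of 8 mice were kept, and the labels do not say that each library is a separate mouse, so p-values measure the spread between these libraries. The model combines smoke with LPS, and the parts of each exposure cannot be told apart.

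The respiratory chain sits in the inner mitochondrial membrane. Complexes I and II pass electrons from NADH and succinate to ubiquinone, complex III passes them on to cytochrome c, and complex IV, cytochrome c oxidase, hands them to oxygen. Complexes I, III and IV pump protons as they do so, and complex V uses the proton gradient to make ATP. Mitochondrial DNA encodes part of the catalytic core of complexes I, III and IV, and the complex V subunits of mt-Atp6 and mt-Atp8. All other subunits are encoded in the nucleus and imported. Several subunits of complex IV exist as pairs, a common form made in most tissues and a form restricted to heart and skeletal muscle, lung, testis or hypoxic cells.

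Values were deposited as TPM (transcript abundance as a share of all transcripts), which are scaled by transcript length and sum to the same total in every library, so levels of different genes can be compared but the sequencing depth is unknown. Immunoglobulin and T-cell receptor segments took 39.2% ± 3.63 of all TPM in QJHTD, 38.4% ± 3.74 in model and 0.453% ± 0.154 in control libraries (SD, n = 3 each). Scgb1a1, the secretory protein of club cells, took 1.73% of TPM in QJHTD, 2.08% in model and 22.4% in control libraries. Such values share out a fixed total, and the median gene differed by -0.47 (log2) between model and control. The main differences are therefore given also after median-ratio rescaling, which brings that median to -0.004, and 3 other scales were tried: quantile normalization, TPM recomputed without receptor segments, hemoglobin genes and mitochondrial genes, and the same recomputation also without the 10 most abundant genes of each group. Over these scales the all-gene median ran from -0.47 to 0.07.

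In control lung the subunits were abundant transcripts. Group means of the 85 tested genes ran from 6.98 TPM (Atp5g2, a gene for the membrane-ring subunit c) to 587 TPM (Cox4i1), with a median of 148 TPM, and 55 of the 85 stood at 100 TPM or more. The same median was 99.6 TPM in QJHTD lungs and 94.3 TPM in model lungs. After Cox4i1, the highest control means belonged to subunits of complexes III, IV and V, among them Cox6c (558 TPM), Cox6a1 (495 TPM), Cox8a (475 TPM), Cox6b1 (472 TPM), Uqcrh (446 TPM) and Atp5b (437 TPM).

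The first comparison asked how smoke and LPS exposure related to the transcripts of the chain. On the deposited scale most subunits were lower in the model lungs: 74 of 85 (87.1%) were lower than in control lungs at an adjusted p under 0.05 (limma on log2(TPM + 1), Benjamini-Hochberg over 16080 genes), none was higher and 11 did not pass, where 56.5% of all genes tested were lower and 16.6% higher. The median log2 fold change was -0.61 for the subunits and -0.47 for all genes. All 3 model libraries lay below all 3 control libraries for 78 of the 85, where this held for 58.5% of all genes. After median-ratio rescaling 27 subunits (31.8%) were lower and 10 (11.8%) were higher in the model, where 29.6% and 30.9% of all genes were, and the median subunit stood at -0.07.

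Of the 85 subunits, 22 were lower in the model at an adjusted p under 0.05 in limma on all 5 scales: 6 tissue-restricted forms of complex IV subunits, 9 other genes of complex I (among them Ndufb4c, annotated as a processed pseudogene), 4 of complex III, 2 of complex IV and 1 of complex V. That is 25.9% of the subunits, close to the 24.8% of all genes that were lower on all 5 scales. A further 17 subunits passed as higher on at least 1 scale, where 33.9% of all genes did, 7 of them in complex V, and 14 of these passed as lower on another scale. Of all genes, 38.6% were lower and 24.9% higher after quantile normalization, 24.9% and 33.9% on recomputed TPM, and 43.0% and 21.7% when the 10 most abundant genes were left out too. The sign of the difference depended on the scale for 46 of the 85 subunits.

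**Figure D1:**
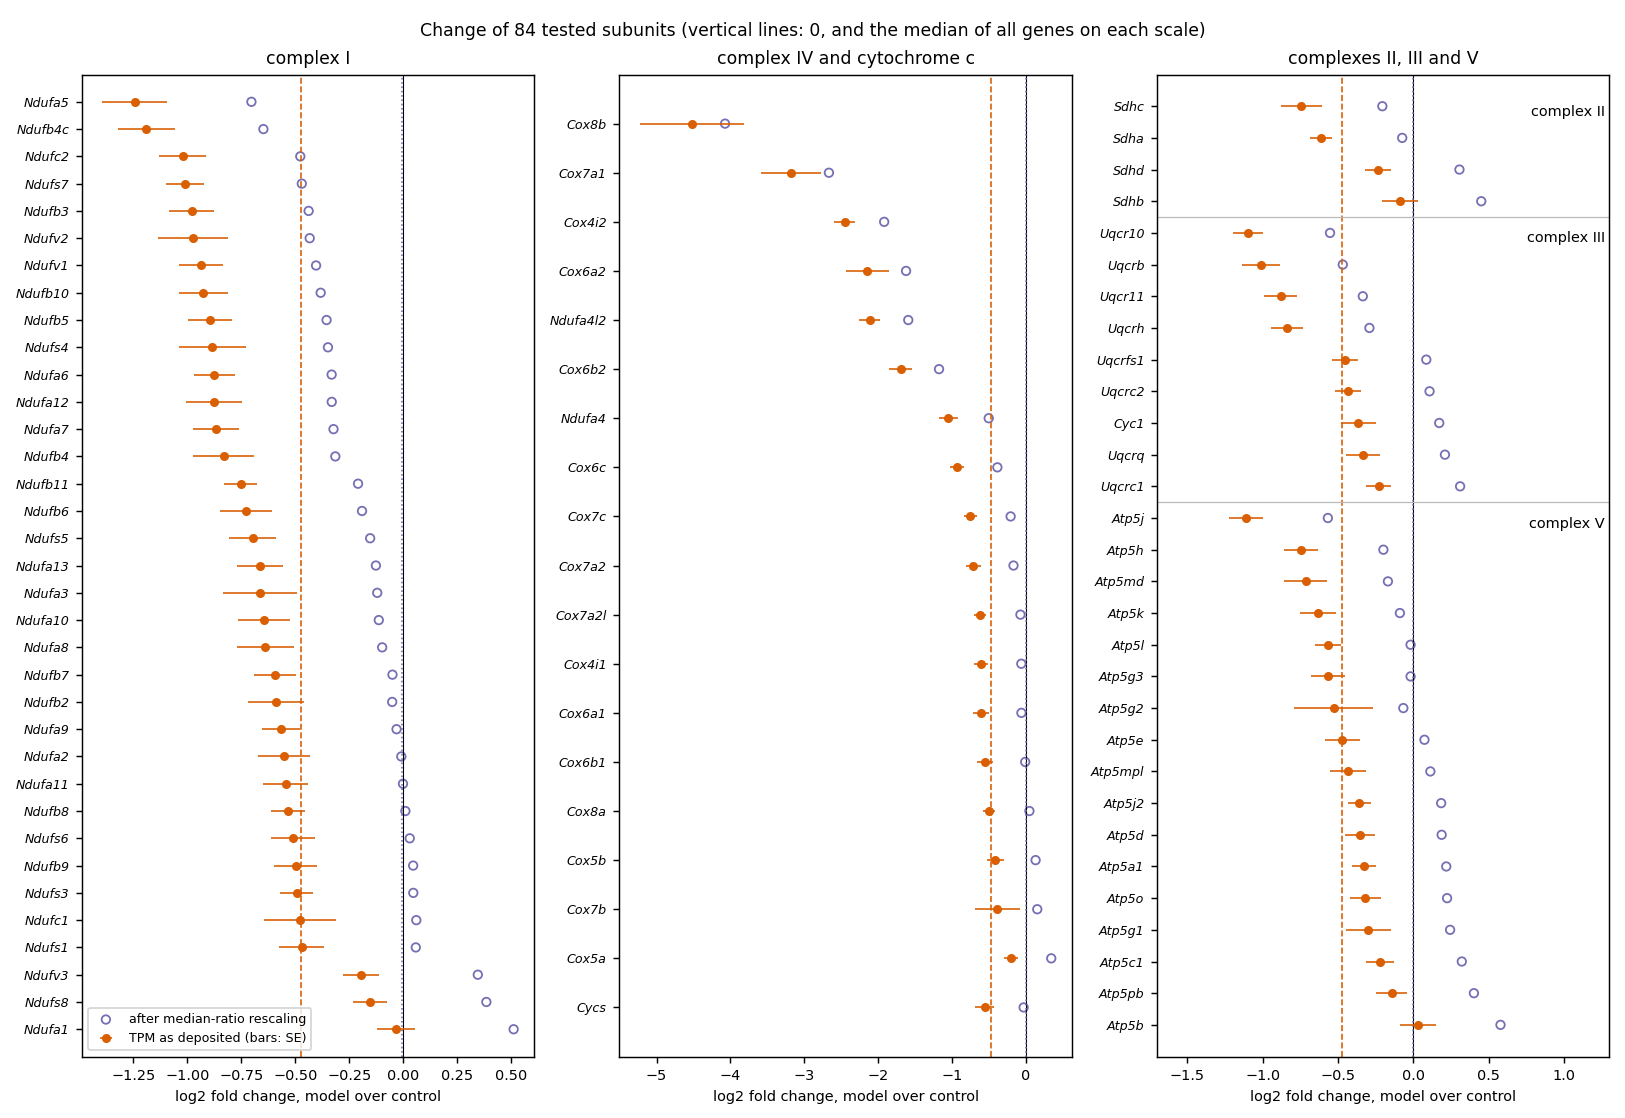
Log2 fold change of 84 of the 85 tested subunits, model over control, by complex. Filled points with SE bars are the deposited TPM scale, open points the median-ratio scale, and vertical lines mark 0 and the median of all genes on each scale. The tissue-restricted forms of complex IV (Cox8b at -4.52 to Cox6b2 at -1.69 on the deposited scale) lie left of all other subunits on both scales, while the others lie on either side of 0 once rescaled.

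The largest differences of the whole chain were those of 6 restricted forms of complex IV subunits, and each of them fell in the model on all 5 scales. Cox8b, the heart and skeletal muscle form of the small membrane subunit 8 (GRCm38 chr7:140898945-140900446, minus strand), was listed at 0, 1.3 and 4.04 TPM in the model libraries, against 41.2, 44.6 and 71.2 TPM in the control libraries. Every model library lay far below every control library. The log2 fold change was -4.52 ± 0.71 (SE; limma, adjusted p = 0.00043), and -4.07 after median-ratio rescaling.

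Cox7a1, the heart and skeletal muscle form of subunit 7a (chr7:30184144-30186078, plus strand), had 3.75, 5.41 and 6.72 TPM in model lungs, against 34.8, 54.2 and 86.8 TPM in control lungs. The groups lay far apart, and the control libraries also differed widely among themselves, with the first the lowest. Its log2 fold change was -3.18 ± 0.41 (limma, adjusted p = 0.00013) and -2.67 after rescaling. Cox6a2, the muscle form of subunit 6a (chr7:128205435-128206387, minus strand), had 10.9, 10.3 and 10.6 TPM in the model, and 31.7, 56.4 and 70.5 TPM in control lungs. The model libraries were nearly alike and the control libraries were again spread, with the first the lowest. The log2 fold change was -2.14 ± 0.29 (limma, adjusted p = 0.00018) and -1.62 after rescaling.

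Cox4i2, the lung form of subunit 4, which is tied to oxygen sensing in lung vessels (chr2:152754173-152765037, plus strand), had 17.4, 17.1 and 18.9 TPM in model lungs, against 121.6, 94.9 and 91.3 TPM in control lungs. Here the first control library was the highest of the 3. The log2 fold change was -2.45 ± 0.14 (limma, adjusted p = 1.4e-06), the smallest adjusted p of any subunit, and -1.92 after rescaling. Ndufa4l2, the hypoxia-induced relative of Ndufa4 (chr10:127514967-127517154, plus strand), had 8.10, 9.50 and 9.65 TPM in the model, and 49.4, 39.1 and 39.7 TPM in control lungs. As for Cox4i2, the first control library was the highest, at a log2 fold change of -2.11 ± 0.14 (limma, adjusted p = 3.3e-06) and -1.59 after rescaling.

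Cox6b2, known as the testis form of subunit 6b (chr7:4751792-4753094, minus strand), had 10.9, 8.85 and 9.0 TPM in model lungs, against 40.8, 29.3 and 30.2 TPM in control lungs. The groups did not overlap, and the first control library was once more the highest. Its log2 fold change was -1.69 ± 0.15 (limma, adjusted p = 1.8e-05) and -1.18 after rescaling. Cox7b2 and Cox8c, which also carry the names of restricted forms, are the ones listed at 0 throughout.

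The common partners of these 6 genes were lower on the deposited scale by much less. Cox4i1 had 396, 382 and 376 TPM in the model, and 564, 602 and 594 TPM in control lungs, a log2 fold change of -0.61 ± 0.09 (limma, adjusted p = 0.00042) that was reduced to -0.06 after rescaling and turned to 0.03 on recomputed TPM. Cox6a1, Cox6b1, Cox7a2 and Cox8a stood between -0.71 and -0.50 on the deposited scale, and of these only Cox7a2 kept a negative value on every scale. Ndufa4 was the exception among the partners. It had 202, 179 and 217 TPM in model lungs, against 406, 383 and 449.9 TPM in control lungs, and it fell on all 5 scales (-1.05 ± 0.13 deposited, limma adjusted p = 8.9e-05, and -0.50 after median-ratio rescaling).

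Within a library the share of a pair held by its restricted form does not depend on how libraries are scaled. Cox7a1 made up 6.25% of the Cox7a1 and Cox7a2 total in QJHTD lungs, 4.81% in model lungs and 24.5% in control lungs. Cox4i2 made up 4.87% ± 0.59 of its pair in QJHTD lungs, 4.43% ± 0.32 in model lungs and 14.9% ± 2.47 in control lungs (SD, n = 3 each). Cox8b made up 0.999% of its pair in QJHTD lungs, 0.541% in model lungs and 9.91% in control lungs. The shares of Cox6a2, Cox6b2 and Ndufa4l2 were 3.15%, 2.89% and 4.38% in the model and 9.60%, 6.61% and 9.41% in the control. The difference in the log2 ratio of restricted to common form (1 TPM added), model minus control, ran from -4.02 for Cox8b over Cox8a to -1.06 for Ndufa4l2 over Ndufa4. Unlike the share, this ratio depends somewhat on scale through the added TPM, chiefly at low levels. Cox8b stood at 0, 1.3 and 4.04 TPM in the model, and its difference was -5.43 with 0.1 TPM added. In each of the 6 pairs the model and control libraries did not overlap (2-sided exact permutation test, p = 0.1, the smallest that 3 against 3 libraries can give, adjusted p = 0.1 over 6 pairs).

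**Figure D2:**
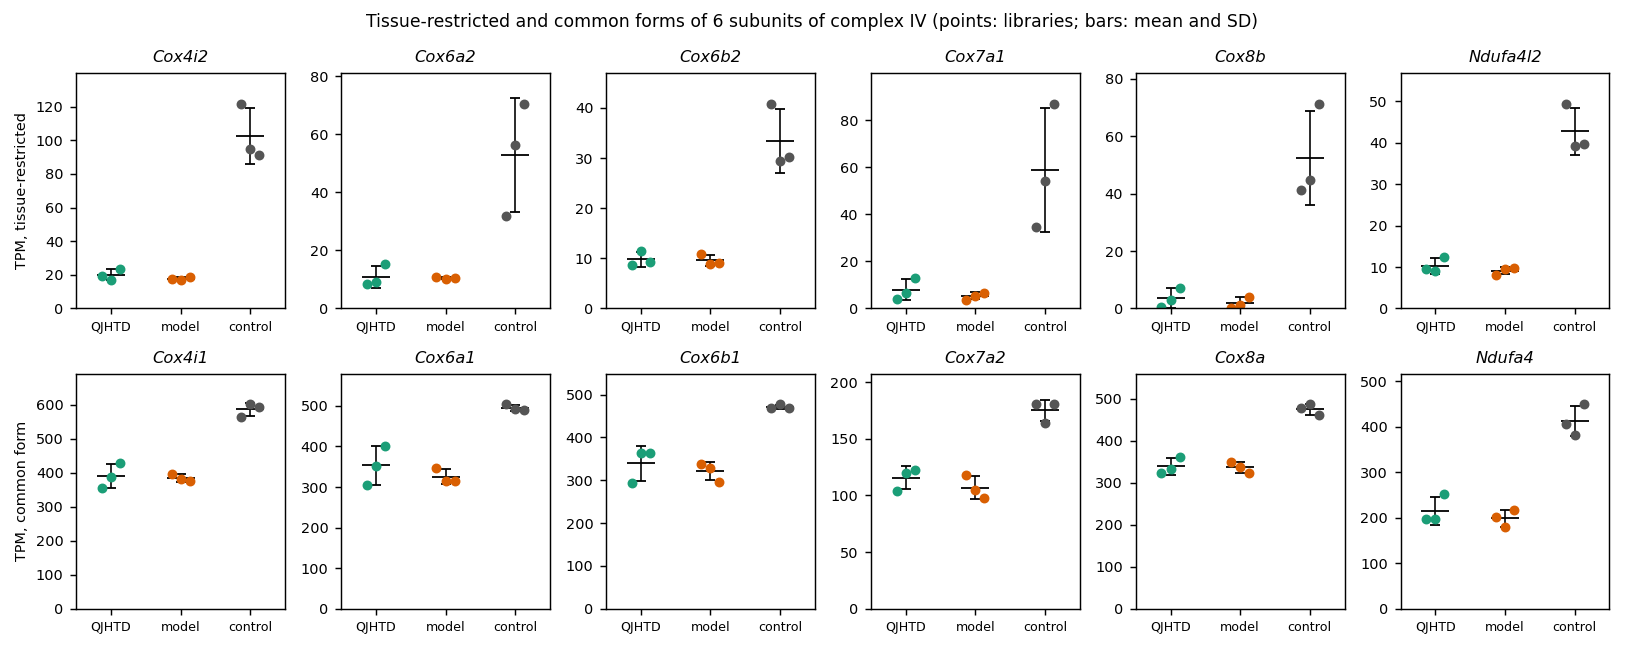
TPM of the restricted and the common form of 6 complex IV subunits in the QJHTD, model and control libraries (points, one a library; bars, mean and SD). The restricted forms stand several times higher in the control than in either exposed group (Cox4i2 at 17.1 to 18.9 TPM in the model and 91.3 to 121.6 TPM in control lungs), while the common forms differ less, at log2 fold changes of -1.05 to -0.50 on the deposited scale, where Cox4i1, Cox6a1, Cox6b1 and Cox8a turn positive on recomputed TPM (0.14 for Cox8a).

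Markers of cell types known to make some of these forms moved with them. Counts of markers lower or higher are on the deposited scale, where 56.5% of all genes were lower and 16.6% higher. Summed TPM of 12 cardiomyocyte markers was 38.1, 67.9 and 441 in QJHTD lungs, 87.1, 38.4 and 199 in model lungs and 707, 1349 and 2282 in control lungs, and 11 of the 12 were lower in the model (median log2 fold change -3.25), with one, Pln, at 0 in the first QJHTD library alone. The first control library was the lowest control and the third QJHTD library the highest exposed one, as for Cox7a1, Cox6a2 and Cox8b. For Cox4i2 and Ndufa4l2 the third QJHTD library was also the highest exposed one, but the first control library was the highest control. Skeletal muscle markers summed to 4.67, 5.39 and 7.53 TPM in the model, and 43.6, 68.0 and 93.1 TPM in control lungs, 3 of 4 tested were lower, and Myh1 and Myh4 were at or near 0. Adipocyte markers summed to 93.9, 56.4 and 112 TPM in model lungs, against 198, 399 and 520 TPM in control lungs, and 6 of 7 tested were lower. The 12 smooth muscle and pericyte markers summed to 140, 121 and 164 TPM in the model, and 603, 511 and 650 TPM in control lungs, with 10 lower (median -1.79) and the channel genes Kcnj8 and Abcc9 not past the test (limma, adjusted p = 0.91 and 0.10). In control libraries this list was not ordered as the cardiomyocyte list was. The 5 germ cell markers were at or near 0 in every library (at most 0.54 TPM in sum), also where Cox6b2 stood at 40.8 TPM. Markers of several cell types not known for these forms moved too. All 8 endothelial markers were lower, with sums of 213, 204 and 199 TPM in model lungs, against 1265, 1282 and 1138 TPM in control lungs, and so were 9 of 10 ciliated and 5 of 7 club cell markers. All 10 neutrophil markers were higher, at 14068, 14342 and 7445 TPM in model lungs and 246, 448 and 924 TPM in control lungs, as were all 8 plasma cell markers, at 9660, 11093 and 11561 TPM in model lungs and 452, 331 and 495 TPM in control lungs. In bulk lung, fewer cells of a type and less RNA per cell cannot be told apart, and the part of any of these cell types in the fall of the restricted forms, or in the values of the other subunits, was not tested.

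**Figure D3:**
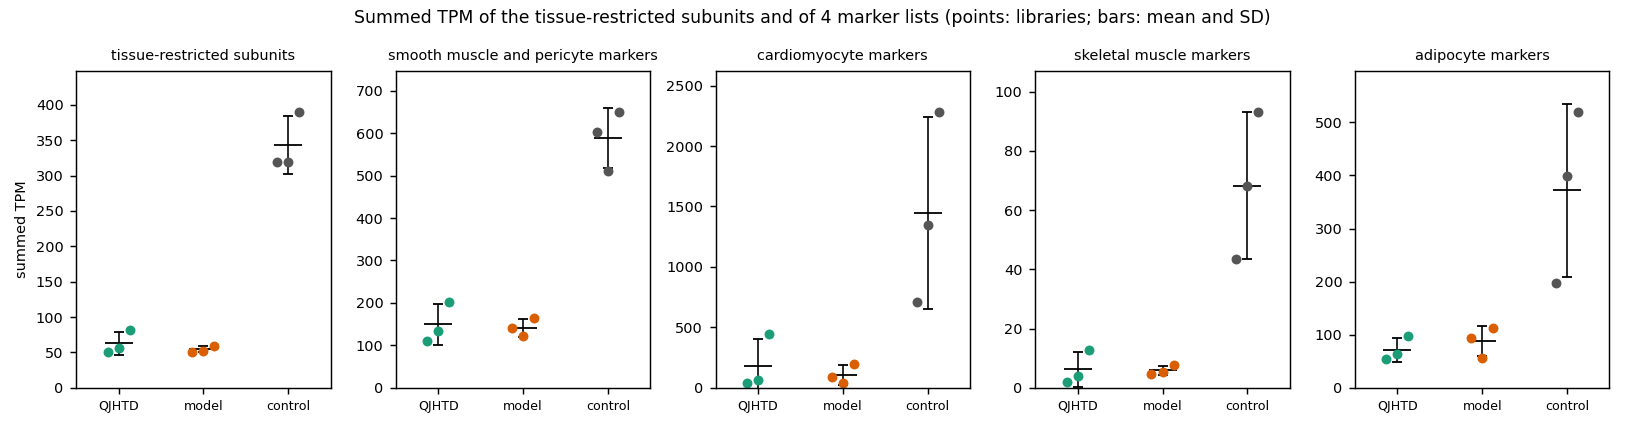
Summed TPM of the restricted complex IV forms and of 4 marker lists in the QJHTD, model and control libraries (points, one a library; bars, mean and SD). The restricted forms sum to 50.4 to 81.1 TPM in QJHTD lungs, 51.0 to 58.9 TPM in model lungs and 319 to 390 TPM in control lungs, and the cardiomyocyte, adipocyte, smooth muscle and skeletal muscle lists are likewise highest in the control.

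Promoter letters of the chain are shown for genes on which the isoform contrast turns, to set restricted and common forms side by side, and for Cycs and Cox6a1, which carry the site of NRF1, the nuclear respiratory factor known to drive many of these genes. Sequences are from RefSeq on GRCm38.p6, are the 250 bases before the annotated start, and run 5′ to 3′ on the gene's strand. Capitals mark matches, on either strand, to the NRF1 core GCATGCGC, the GABP site CCGGAAGT and the E-box CAGCTG of muscle regulators. The windows are chr7:30183921-30184170 (plus) for Cox7a1, chr9:79759854-79760103 (minus) for Cox7a2, chr7:140900447-140900696 (minus) for Cox8b, chr19:7217617-7217866 (minus) for Cox8a, chr5:115348959-115349208 (minus) for Cox6a1 and chr6:50566570-50566819 (minus) for Cycs.
Cox7a1: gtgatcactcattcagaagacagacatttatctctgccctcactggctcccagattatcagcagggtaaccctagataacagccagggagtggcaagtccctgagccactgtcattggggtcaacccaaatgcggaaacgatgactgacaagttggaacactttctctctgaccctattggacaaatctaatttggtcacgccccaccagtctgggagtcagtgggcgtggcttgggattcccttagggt
Cox7a2: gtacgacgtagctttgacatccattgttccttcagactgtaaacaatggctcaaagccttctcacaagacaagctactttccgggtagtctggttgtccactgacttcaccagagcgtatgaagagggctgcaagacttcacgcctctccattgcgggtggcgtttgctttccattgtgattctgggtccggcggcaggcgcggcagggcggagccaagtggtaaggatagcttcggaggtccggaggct
Cox8b: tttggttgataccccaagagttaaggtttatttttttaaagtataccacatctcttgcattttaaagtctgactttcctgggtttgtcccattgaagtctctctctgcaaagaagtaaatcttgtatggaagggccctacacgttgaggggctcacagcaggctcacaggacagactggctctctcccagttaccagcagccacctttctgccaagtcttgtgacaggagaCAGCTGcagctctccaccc
Cox8a: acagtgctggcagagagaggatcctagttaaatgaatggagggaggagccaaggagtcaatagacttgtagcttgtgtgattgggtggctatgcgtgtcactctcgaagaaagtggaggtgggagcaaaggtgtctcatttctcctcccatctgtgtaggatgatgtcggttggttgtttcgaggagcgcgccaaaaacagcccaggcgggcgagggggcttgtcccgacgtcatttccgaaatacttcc
Cox6a1: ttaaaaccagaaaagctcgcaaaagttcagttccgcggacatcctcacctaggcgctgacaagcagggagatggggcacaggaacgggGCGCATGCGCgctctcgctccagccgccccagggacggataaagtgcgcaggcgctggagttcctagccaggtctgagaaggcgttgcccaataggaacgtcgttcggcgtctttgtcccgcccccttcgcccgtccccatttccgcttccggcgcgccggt
Cycs: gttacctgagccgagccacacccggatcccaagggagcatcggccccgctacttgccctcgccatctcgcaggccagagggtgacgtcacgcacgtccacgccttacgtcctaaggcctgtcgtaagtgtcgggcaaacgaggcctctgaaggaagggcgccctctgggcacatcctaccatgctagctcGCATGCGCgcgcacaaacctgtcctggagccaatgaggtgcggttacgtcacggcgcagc

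RefSeq held a promoter window for 69 of the 91 genes, 68 of them tested. Its start had to lie on the gene's strand, within the GENCODE gene or at most 1000 bases from it. Some windows, such as those of Atp5d and Cox7a2l, therefore lie inside the gene as GENCODE annotates it. Over the same 250 bases, the NRF1 core was present in 9 of 68 subunit promoters (13.2%), where it was present in 2.32% of 27025 promoters. The 9 were Ndufa11, Ndufa6, Ndufa8, Sdhb, Cox6a1, Atp5g2, Atp5k, Atp5l and Cycs. The GABP site was in 4.41% of subunit promoters and 2.93% of all promoters, and the E-box in 8.82% of subunit promoters and 12.8% of all promoters. Of the restricted forms, 3 had a window. None held the NRF1 core, and Cox8b held an E-box. YY1 (ATGGCGGC), ERR (TCAAGGTCA) and MEF2 sites were each in 1.47% of subunit promoters, where 1.04%, 0.366% and 3.23% of all promoters held them. None of the motifs was found in the windows of Cox7a1, Cox7a2 and Cox8a. A match is a string of letters and not a measured binding site. Genes with no window included Atp5a1, Atp5mpl, Cox4i1, Cox4i2, Cox6a2, Cox6c, Cox6c2, Cox8c, Cyc1, Ndufa11b, Ndufa2, Ndufa4l2, Ndufb4c, Ndufb9, Ndufs1, Ndufs6b, Sdhc, Uqcrb, Uqcrc2, Uqcrq and the untested copy of Atp5o.

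Complex I, which takes electrons from NADH, was the largest group, and 33 of its 36 tested genes were lower in the model (median log2 fold change -0.66). Among core subunits, which hold the flavin and iron-sulfur centres, 6 of 7 were lower (median -0.60), and among the others, which surround the core, 27 of 29 were (median -0.66). After median-ratio rescaling 14 of 36 were lower and 3 higher, with a median of -0.12. Of all genes, 56.5% were lower on the deposited scale, and 29.6% were lower and 30.9% higher after rescaling.

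The largest fall in complex I was that of Ndufa5, a subunit of the matrix arm, with 49.5, 43.3 and 60.4 TPM in model lungs, against 127.5, 100.1 and 139 TPM in control lungs. The libraries of the groups were well apart, and the log2 fold change was -1.24 ± 0.15 (limma, adjusted p = 9.2e-05) and -0.70 after rescaling. Ndufc2, a small membrane subunit, had 91.4, 84.3 and 100.3 TPM in the model, and 196, 177 and 189.7 TPM in control lungs. It fell by 1.02 on the log2 scale (SE 0.11; limma, adjusted p = 4.5e-05), and the value was -0.48 after rescaling. Ndufv1, which binds NADH and the flavin, had 31.5, 28.5 and 24.9 TPM in model lungs, against 53.7, 55.1 and 56.1 TPM in control lungs, without overlap, at a log2 fold change of -0.94 ± 0.10 (limma, adjusted p = 5.3e-05) and -0.40 after rescaling.

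Ndufb4c also stood out, at 69.3, 82.0 and 69.2 TPM in the model, and 169, 171 and 166 TPM in control lungs (log2 fold change -1.19 ± 0.13, limma adjusted p = 5.8e-05). It is annotated as a processed pseudogene (chr15:73809507-73809896, minus strand), a near copy of Ndufb4 on chromosome 16, whose own levels were 12.8, 10.5 and 12.9 TPM in model lungs, against 20.7, 19.5 and 26.9 TPM in control lungs. Reads can be split between the copies, so neither level is certain.

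The core subunit Ndufs1 lay near the median of all genes, and its direction depended on the scale. Ndufs1, which carries iron-sulfur clusters, had 23.7, 21.6 and 26.0 TPM in the model, and 32.0, 31.9 and 35.9 TPM in control lungs, with a log2 fold change of -0.47 (limma, adjusted p = 0.0031) that became 0.06 after median-ratio rescaling. Not past the test in complex I were Ndufa1, Ndufs8 and Ndufv3, at deposited log2 fold changes of -0.03, -0.15 and -0.20. After median-ratio rescaling these were 0.51, 0.39 and 0.35, and all 3 passed as higher in the model (limma, adjusted p = 0.0052, 0.0100 and 0.0095).

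Complex II, succinate dehydrogenase, is the sole complex with no mitochondrially encoded subunit and links the chain to the tricarboxylic acid cycle. Of its 4 genes 3 were lower in the model (median log2 fold change -0.42), where 56.5% of all genes were. After rescaling none was lower and 2 were higher, where 29.6% and 30.9% of all genes were. Sdhc, a membrane anchor, had 42.1, 39.8 and 54.0 TPM in the model, and 75.4, 73.6 and 78.6 TPM in control lungs, a log2 fold change of -0.74 ± 0.14 (limma, adjusted p = 0.0010) and -0.21 after rescaling. Sdha, the flavin subunit, had 47.6, 43.9 and 43.5 TPM in model lungs, against 68.4, 70.6 and 68.8 TPM in control lungs, at -0.61 ± 0.07 (limma, adjusted p = 8.0e-05), -0.07 after median-ratio rescaling and 0.02 on recomputed TPM. For neither gene did the groups overlap.

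Sdhd, the other anchor, had 73.9, 66.1 and 71.2 TPM in the model, and 81.3, 80.0 and 87.7 TPM in control lungs, and its log2 fold change of -0.23 ± 0.09 (limma, adjusted p = 0.032) turned to 0.31 after median-ratio rescaling. It no longer passed when the first or the third control library, or the second or the third model library, was left out (limma, adjusted p = 0.054 to 0.11). Sdhb, the iron-sulfur subunit, had 72.6, 76.3 and 67.8 TPM in model lungs, against 65.5, 76.3 and 90.8 TPM in control lungs. Its groups overlapped, and the log2 fold change of -0.09 ± 0.12 (limma, adjusted p = 0.51) also turned, to 0.45 after median-ratio rescaling (limma, adjusted p = 0.034).

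In complex III all 9 genes were lower in the model on the deposited scale (median log2 fold change -0.45), where 56.5% of all genes were. After rescaling 4 were lower and 1 higher, where 29.6% and 30.9% of all genes were. The 4 lower genes were all small subunits without a redox centre, and they fell on all 5 scales. Uqcr10 had 216, 197 and 188 TPM in the model, and 417, 416 and 457 TPM in control lungs, a log2 fold change of -1.10 ± 0.10 (limma, adjusted p = 1.8e-05) and -0.55 after rescaling. Uqcrb had 165, 142 and 174 TPM in model lungs, against 306, 301 and 369 TPM in control lungs, at -1.01 ± 0.13 (limma, adjusted p = 0.00011) and -0.47. Uqcr11 stood at -0.88 ± 0.11 and Uqcrh at -0.84 ± 0.10 on the deposited scale, and no library overlapped for any of the 4.

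The other 5 genes of complex III stood between -0.45 and -0.23 on the deposited scale and above 0 after median-ratio rescaling. The core subunits Uqcrc1 and Uqcrc2 were at -0.23 and -0.43 (0.31 and 0.11 after rescaling), and the small subunit Uqcrq at -0.34 (0.21 after rescaling). Uqcrc1 was the one gene of the complex to pass as higher after that rescaling (limma, adjusted p = 0.032). Uqcrfs1, the Rieske iron-sulfur protein, had 51.9, 52.7 and 56.0 TPM in the model, and 70.0, 70.4 and 80.9 TPM in control lungs, with a log2 fold change of -0.45 ± 0.08 (limma, adjusted p = 0.0012) that became 0.09 after rescaling. Cyc1, cytochrome c1, had 46.8, 46.7 and 43.4 TPM in model lungs, against 50.2, 66.8 and 61.2 TPM in control lungs, at -0.37 ± 0.12 (limma, adjusted p = 0.018) and 0.17 after rescaling. The groups did not overlap, though the first control library lay close to the model, and Cyc1 no longer passed without the second or the third control library or without the third model library (limma, adjusted p = 0.052 to 0.064). Cycs, cytochrome c itself, had 18.0, 17.3 and 20.6 TPM in the model, and 27.1, 24.8 and 31.7 TPM in control lungs, at -0.55 ± 0.13 (limma, adjusted p = 0.0038), -0.03 after median-ratio rescaling and 0.06 on recomputed TPM.

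In complex IV the 12 genes other than restricted forms had a median log2 fold change of -0.61. Of these, 10 were lower in the model, where 56.5% of all genes were. After rescaling, Ndufa4 and Cox6c were lower, and Cox5a was higher, where 29.6% of all genes were lower and 30.9% higher. Cox6c, a small membrane subunit, had 291, 289 and 295 TPM in model lungs, against 533, 540.4 and 601 TPM in control lungs, a difference of -0.93 ± 0.09 (limma, adjusted p = 2.9e-05) and -0.38 after rescaling. Cox5a, a matrix-side subunit, had 154, 148 and 151 TPM in the model, and 165, 170.2 and 185 TPM in control lungs. The libraries did not overlap, yet the log2 fold change of -0.20 ± 0.10 did not pass (limma, adjusted p = 0.088), and it turned to 0.34 after rescaling (limma, adjusted p = 0.018). Without the third QJHTD library, which shares in the error estimate, it passed as lower (limma, adjusted p = 0.046). Cox7b, the other gene that did not pass, was uneven within every group, at 95.4, 70.0 and 129.7 TPM in model lungs, against 152.5, 99.0 and 129.4 TPM in control lungs.

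Complex V held 5 of the 11 subunits that did not pass on the deposited scale. On the deposited scale 12 of 17 were lower in the model (median log2 fold change -0.43), and among the 5 subunits of the catalytic F1 head 3 were (median -0.33). After median-ratio rescaling 1 gene was lower and 3 were higher. Of all genes, 56.5% were lower as deposited, and 29.6% were lower and 30.9% higher after that rescaling. Atp5b, the catalytic beta subunit and the most abundant gene of the complex, had 495, 465 and 385 TPM in the model, and 399, 435 and 478 TPM in control lungs. The groups overlapped, and the log2 fold change was 0.03 ± 0.12 (limma, adjusted p = 0.82), 0.58 after median-ratio rescaling (limma, adjusted p = 0.0092) and -0.36 after quantile normalization. Atp5a1, the alpha subunit, had 192, 175 and 176 TPM in model lungs, against 217, 229 and 236 TPM in control lungs, at -0.33 ± 0.08 (limma, adjusted p = 0.0059) and 0.22 after rescaling.

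Atp5j, coupling factor 6 of the stalk, was the one gene of complex V to pass as lower on all 5 scales. It had 121, 109 and 128 TPM in the model, and 251, 239 and 288 TPM in control lungs, and the log2 fold change was -1.11 ± 0.11 (limma, adjusted p = 3.4e-05) and -0.57 after rescaling. Atp5h, subunit d of the stalk, and Atp5md, a small membrane subunit, came next on the deposited scale at -0.74 ± 0.11 and -0.71 ± 0.14, and neither passed after rescaling (-0.20 and -0.17; limma, adjusted p = 0.067 and 0.29). The 5 genes of complex V that did not pass on the deposited scale were Atp5b, Atp5c1, Atp5g1, Atp5g2 and Atp5pb. Of these Atp5g2 passed as lower without the third model library (limma, adjusted p = 0.018) or the third QJHTD library (limma, adjusted p = 0.049).

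Summed over all 91 genes, subunit transcripts were 10430, 9835 and 9968 TPM in model lungs, against 15469, 15040 and 16473 TPM in control lungs, a ratio of 0.643. The share of each complex in that sum does not depend on the scale of a library, and the groups differed in it for all 5 complexes, though an exact test of 3 libraries against 3 cannot reach p = 0.05. Complex V took 31.2% ± 0.48 of subunit TPM in the model and 27.6% ± 0.475 in the control, and complex II took 2.26%, 2.30% and 2.37% in the model and 1.88%, 2.00% and 1.98% in the control. Complex IV took 26.6%, 26.8% and 27.0% in the model and 28.7%, 29.1% and 28.1% in the control. Complex III took 12.1%, 11.8% and 11.8% in the model and 12.9%, 13.2% and 13.3% in the control, and complex I took 27.4% to 28.0% in the model and 28.3% to 28.9% in the control. In no complex did the libraries overlap (2-sided exact permutation test, p = 0.1 each, the smallest possible, adjusted p = 0.114 over 8 values computed per library). The restricted forms made up 0.489% to 0.591% of subunit TPM in the model and 2.07% to 2.37% in the control.

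**Figure D4:**
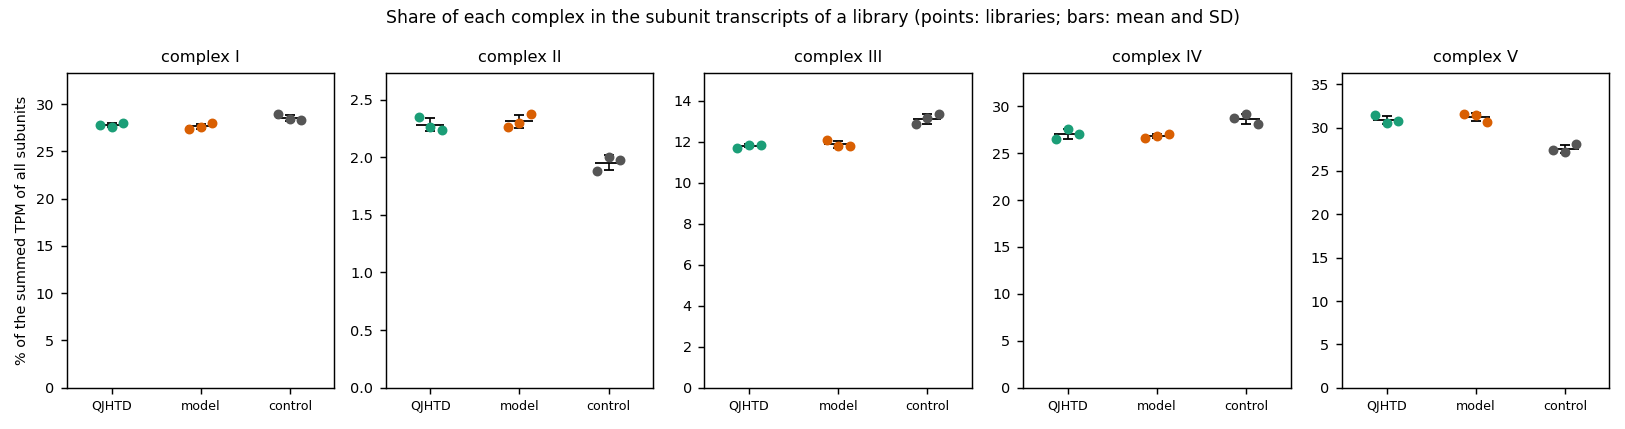
Percent of the summed TPM of all subunits held by each complex in the QJHTD, model and control libraries (points, one a library; bars, mean and SD). Complexes II and V hold a larger share in both exposed groups than in the control (complex V 30.9% in QJHTD, 31.2% in model and 27.6% in control lungs), and complexes I, III and IV a smaller one.

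Ratios of 2 subunits of 1 complex within a library show the same unevenness, also free of library scale. The pairs were chosen after their values were seen, as one strongly and one weakly changed gene each, so they carry no test. Ndufa5 over Ndufa1 was 0.207, 0.168 and 0.241 in the model and 0.498, 0.413 and 0.520 in the control. Uqcr10 over Uqcrc1 was 2.84, 2.59 and 2.63 in the model and 5.14, 4.59 and 4.99 in the control, although both genes code for complex III. Atp5j over Atp5b was 0.244, 0.235 and 0.333 in the model and 0.630, 0.551 and 0.602 in the control. Ndufs7 over Ndufs8, neighbouring iron-sulfur subunits of complex I, was 1.01, 0.996 and 1.03 in the model and 1.95, 1.81 and 1.77 in the control. Cox6c over Cox5a and Sdhc over Sdhb were likewise lower in each model library than in each control library. Across the 79 tested genes other than restricted forms, the log2 fold change had a Spearman correlation of 0.255 with transcript length and of -0.162 with the control level, given as a description only, since all points share the same libraries.

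The subunits encoded by mitochondrial DNA had larger differences at the median than the nuclear-encoded ones. Of 13, 12 were lower in the model (median log2 fold change -1.40), and 10 were after median-ratio rescaling, where 56.5% and 29.6% of all genes were. The gene mt-Nd2, a membrane subunit of complex I, had 1206, 874 and 1859 TPM in the model, and 4049, 4640.4 and 4448 TPM in control lungs, at -1.80 ± 0.25 (limma, adjusted p = 0.00020) and -1.26 after rescaling. The gene mt-Nd4 stood at -1.59 ± 0.26 and -1.04. The model libraries were spread, however, and the ratio of mitochondrially to nuclear-encoded subunit TPM was 3.13, 2.38 and 4.72 in the model and 4.49, 5.81 and 4.62 in the control. The groups overlapped through the third model library (2-sided exact permutation test, p = 0.3). A single gene, mt-Atp8, made up a large part of the mitochondrially encoded sums. It had 14567, 10180 and 19444 TPM of sums of 32651, 23372 and 47064 TPM in the model. In control lungs it had 22933, 38980 and 26789 TPM of 69380, 87381 and 76031 TPM. The overlap therefore leans on that gene, and the ratio without it was not tested.

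On the deposited scale the other mitochondrial gene lists were mostly lower in the model too, where 56.5% of all genes were lower and 16.6% higher. Assembly factors, which build the complexes, were lower for 38 of 46 tested and higher for 1 (Coa7, 0.74), with a median of -0.63. Surf1, needed for complex IV assembly, stood at -0.85 and Tmem126b, of complex I assembly, at -0.80 (limma, adjusted p = 4.9e-05 and 8.5e-05), and both stayed below 0 on every scale. Genes of the tricarboxylic acid cycle were lower for 15 of 18 (median -0.73; Pdha1 -0.83, Sucla2 -0.91), of coenzyme Q synthesis for 11 of 13 (median -0.64; Coq10b -0.91, Coq6 -0.90) and of mitochondrial ribosomal proteins for 56 of 78, with 1 higher (median -0.58; Mrpl14 -1.14, Mrps31 -1.06). Protein import genes were lower for 18 of 28 (median -0.48; Tomm7 -0.85, and Tomm6 -0.63, which was 0.00 on recomputed TPM), and regulators of mitochondrial biogenesis for 13 of 18 with 1 higher (median -0.54; Sirt1 -1.15, Twnk -0.79). After median-ratio rescaling the lower and higher counts were 12 and 4 for assembly factors, 5 and 3 for the cycle, 6 and 0 for coenzyme Q, 14 and 16 for ribosomal proteins, 3 and 7 for import and 4 and 4 for regulators. Of all genes, 29.6% were lower and 30.9% higher on that scale.

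Enzymes that feed ubiquinone from other substrates, and carriers of the inner membrane, were 2 further lists. The shares of all genes were again 56.5% lower as deposited, and 29.6% lower and 30.9% higher after median-ratio rescaling. Of 7 alternative donors 6 were lower (median -0.85), and after median-ratio rescaling 4 were lower and 1 higher. Prodh, proline dehydrogenase, had 4.18, 2.61 and 4.53 TPM in model lungs, against 16.1, 15.3 and 15.4 TPM in control lungs, a log2 fold change of -1.82 ± 0.20 (limma, adjusted p = 4.9e-05) and -1.34 after rescaling, and Etfa, of the electron transfer flavoprotein, stood at -0.89. Of 12 carriers and related genes 9 were lower and 2 higher (median -0.80), with Higd2a at -0.84 and Vdac1 at -0.82, and after median-ratio rescaling 6 were lower and 3 higher. The 2 higher genes were Slc25a5 and the uncoupling protein Ucp2. Ucp2 stood at 0.33 ± 0.13 (limma, adjusted p = 0.043), at 0.88 after median-ratio rescaling and at -0.01 on the quantile scale (limma, adjusted p = 0.95), and it did not pass in 8 of 9 fits that left out 1 library (limma, adjusted p up to 0.15).

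The ADP/ATP translocases of that list, picked after their values were seen, differed from each other in direction. Slc25a4, the heart and muscle form, had 78.4, 66.0 and 67.9 TPM in the model, and 132.4, 156 and 176 TPM in control lungs, and was lower on all 5 scales (-1.11 ± 0.14 deposited, limma adjusted p = 0.00011, and -0.57 after median-ratio rescaling). Slc25a5, the form of dividing cells, had 197, 195 and 162 TPM in model lungs, against 134, 135 and 174 TPM in control lungs. It stood at 0.32 ± 0.12 (limma, adjusted p = 0.041) and 0.86 after median-ratio rescaling, was above 0 on all 5 scales and did not pass on the quantile scale (0.21, limma adjusted p = 0.20). In 7 of 9 fits that left out 1 library it did not pass either, at an adjusted p of up to 0.13 in limma: passing fits were those without the third control or the third model library. Ckmt2, the sarcomeric mitochondrial creatine kinase, also picked after its values were seen, had 0.77, 0.33 and 1.26 TPM in the model, and 9.66, 24.3 and 26.6 TPM in control lungs, with the first control library again the lowest (-3.48 ± 0.45, limma adjusted p = 0.00014).

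The second comparison asked whether the decoction changed the chain in exposed lungs. No subunit passed between QJHTD and model lungs: 0 of 85 did at an adjusted p under 0.05 (limma) in either direction, where 0.0124% of all genes were higher and none lower, and 0 of 85 did at an unadjusted p under 0.05, where 4.10% of all genes were higher and 2.74% lower. For no subunit did the 3 QJHTD libraries lie all above or all below the 3 model libraries, which held for 8.44% and 3.81% of all genes. The group mean was higher in QJHTD lungs for 69 subunits and lower for 16, with a median log2 fold change of 0.06, where the median of all genes was 0.05. Summed subunit TPM was 9530, 10391 and 11370 in the QJHTD group and 10430, 9835 and 9968 in the model, with the first QJHTD library the lowest and the third the highest of the 6 (2-sided exact permutation test, p = 0.7).

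The intervals bound what these libraries could show. For 80 of the 85 subunits the 95% interval of the log2 fold change lay within 0.5 of 0 on either side. The other 5 were Cox6a2, Cox7a1, Cox7b, Cox8b and Atp5g2, each uneven between the libraries of at least 1 group. The error behind the intervals is estimated over all 3 groups, so the control libraries share in it. For Cox6a2 the SD was 3.82 TPM in QJHTD, 0.316 TPM in model and 19.6 TPM in control libraries. Atp5g2, of subunit c, had the smallest p. It had 8.38, 8.66 and 4.54 TPM in QJHTD lungs and 3.63, 3.65 and 6.78 TPM in the model, so that one library of each group crossed over, and its log2 fold change was 0.53 with an interval of -0.07 to 1.12 (limma, adjusted p = 0.76). Next were Ndufb6, a membrane subunit of complex I (0.18, interval -0.09 to 0.46), Ndufv1 (0.15, interval -0.08 to 0.38) and Ndufb4c (0.19, interval -0.10 to 0.49), at adjusted p of 0.81 to 0.82 in limma.

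No restricted form passed between QJHTD and model lungs. Cox4i2 had 19.4, 17.0 and 23.7 TPM in QJHTD lungs and 17.4, 17.1 and 18.9 TPM in the model, a log2 fold change of 0.15 (95% interval -0.17 to 0.47, limma). Cox7a1 had 4.18, 6.74 and 13.0 TPM in QJHTD lungs and 3.75, 5.41 and 6.72 TPM in the model, at 0.42 (interval -0.50 to 1.34), and Cox8b had 0.35, 3.04 and 7.30 TPM in QJHTD lungs and 0.00, 1.3 and 4.04 TPM in the model, at 0.66 (interval -0.95 to 2.26). In both, as in Cox6a2, Cox4i2 and Ndufa4l2 but not Cox6b2, the third QJHTD library was the highest of the 6. That library also held the highest sums of cardiomyocyte markers (441 TPM), of smooth muscle and pericyte markers (203 TPM) and of all subunits (11370 TPM). Adipocyte markers were highest in the third model library (112 TPM). The part of any of these cell types in the values was not tested. Ndufa4l2 stood at 0.16, Cox6b2 at 0.03 and Cox6a2 at -0.00. The isoform ratios differed by -0.11 to 0.65 and overlapped in all 6 pairs (2-sided exact permutation test, p = 0.4 to 0.7, adjusted p = 0.7 over 6 pairs). Shares of the complexes overlapped as well (p = 0.5 to 0.7, exact permutation test), and no gene of any of the 9 other mitochondrial lists passed (limma).

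**Figure D5:**
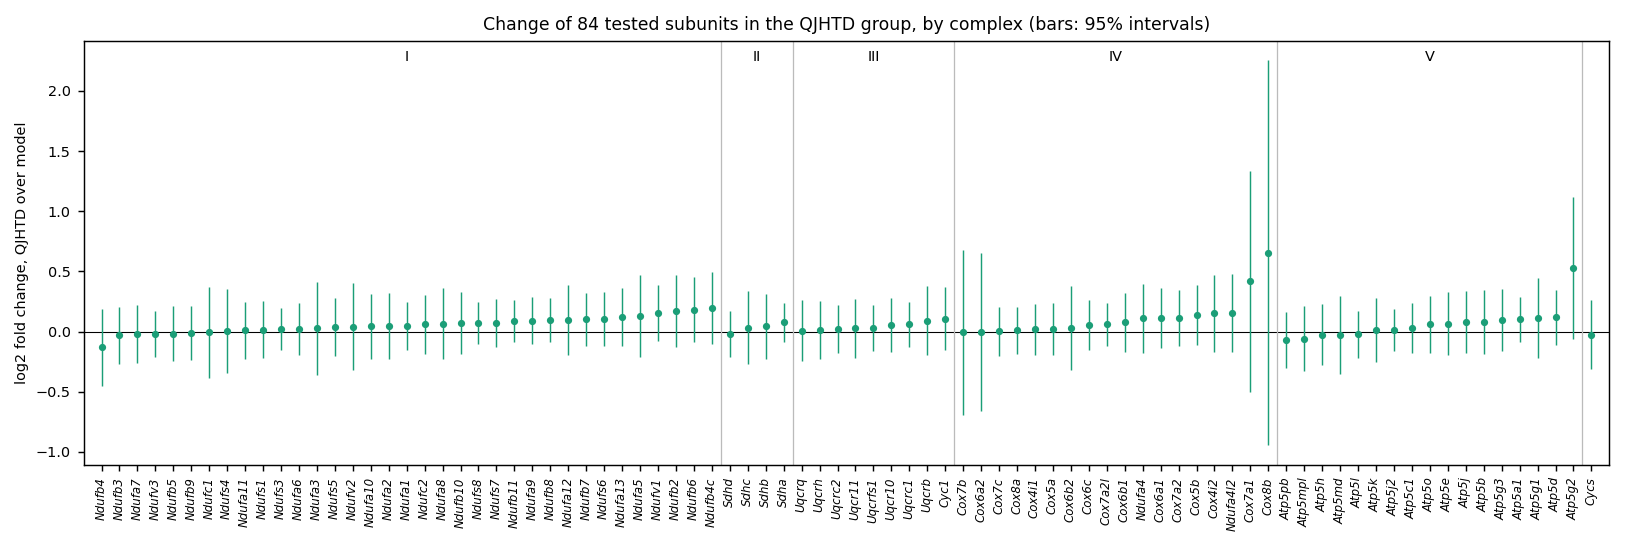
Log2 fold change of 84 of the 85 tested subunits, QJHTD over model, ordered by complex, with 95% intervals from limma. All plotted intervals include 0, and all but 5 stay within 0.5 of it, while the intervals of Cox8b (-0.95 to 2.26) and Cox7a1 (-0.50 to 1.34) are the widest.

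The third comparison set QJHTD lungs against control lungs, which are the same control libraries as above, so it is not independent of the first. Lower were 71 of 85 subunits (83.5%) and higher none, where 53.7% of all genes were lower and 17.0% higher (limma, adjusted p under 0.05), and the median log2 fold change was -0.55 where that of all genes was -0.44. All QJHTD libraries lay below all control libraries for 71 subunits, where this held for 56.8% of all genes. After median-ratio rescaling 28 subunits (32.9%) were lower and 11 (12.9%) higher, where 29.1% and 31.3% of all genes were. On the remaining scales the shares of all genes lower and higher were 38.1% and 25.1% (quantile), 22.7% and 36.5% (recomputed) and 41.0% and 22.3% (recomputed without the 10 most abundant genes too). The 14 that did not pass on the deposited scale were Ndufa1, Ndufs8, Sdhb, Cyc1, Uqcrc1, Cox5a, Cox5b, Cox7b, Atp5b, Atp5c1, Atp5d, Atp5g1, Atp5g2 and Atp5pb.

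All 6 restricted forms were lower in QJHTD than in control lungs, with a median log2 fold change of -2.22. Cox8b stood at -3.86 (limma, adjusted p = 0.0011), Cox7a1 at -2.76 (limma, adjusted p = 0.00032), Cox4i2 at -2.30 (limma, adjusted p = 2.3e-06), Cox6a2 at -2.15, Ndufa4l2 at -1.96 and Cox6b2 at -1.67. The isoform ratios were lower by 1.02 (Ndufa4l2 over Ndufa4) to 3.37 (Cox8b over Cox8a) on the log2 scale, with no overlap in any pair (exact permutation test, p = 0.1 each). The ratio of mitochondrially to nuclear-encoded subunit TPM was 3.04, 2.86 and 2.99 in the QJHTD group and 4.49, 5.81 and 4.62 in the control, here without overlap (exact permutation test, p = 0.1). Summed subunit TPM in QJHTD lungs was 0.666 times that in control lungs.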

How the data were processed

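RNA of 9 lung libraries was sequenced, trimmed with fastp and quantified with RSEM per the labels, and the authors deposited TPM per gene. Their versions are not stated in what was read here. The labels name the build GRCh38.p6, a human one, while the gene identifiers are mouse, so coordinates were taken from GENCODE M21 (GRCm38). TPM hold no sequencing depth.

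A gene was tested where 3 or more of the 9 libraries reached 1 TPM, which left 16080 of 56263, and values were fitted as log2(TPM + 1) in one limma 3.58.1 model of the 3 groups (R 4.3.3), with an intensity trend, 2-sided tests and Benjamini-Hochberg adjustment over all genes. The study screened genes of these libraries by p-value and fold change and does not name the test. A log2 fold change on this scale understates the change of low genes. Isoform ratios and library sums were compared with 2-sided exact permutation tests over libraries. The rest was done in Python 3.11.15 with numpy 2.4.6, pandas 2.3.3 and, for plots, matplotlib 3.10.9. The procedure was tested on simulated data. The subunits, lists, isoform pairs and tests were chosen with earlier results of these data known.

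Genes given by name were the 3 of each of complexes I, III, IV and V with the largest change among those past the threshold without overlap, all of complex II, Cyc1 and Cycs, the core subunits, the 6 isoform pairs, the 4 with the smallest p between QJHTD and model, and 2 of each list. Others were named after their values were seen. The values of 1 core subunit are not reported here, and it is left out of the plots, though counts over subunits include it. The pseudogene-suffixed names left out were at most 1.48 TPM in any library, except Ndufa12-ps (9.83, 8.45 and 11.7 TPM in model lungs, 24.6, 22.1 and 28.4 TPM in control lungs) and Ndufb1-ps (44.6, 43.8 and 47.2 TPM in model lungs, 68.4, 61.7 and 68.9 TPM in control lungs). Ndufa4 and Ndufa4l2 were counted in complex IV. The alternatives were another pseudocount (0.1), no filter or a mean of at least 5 TPM, 4 other scales, 2-group fits, no trend, a replicate block, and leaving out libraries.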

Additional observations from a re-analysis of the deposited data

How the results depend on the processing

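Without depth, counting error cannot be given, and 3 libraries a group limit the exact tests to p = 0.1. Of the choices tried, the scale of the libraries mattered most, since it sets where no change lies. After median-ratio rescaling 37 subunits passed between model and control (27 lower, 10 higher) and 39 between QJHTD and control (28 lower, 11 higher), and model over control turned positive for 29 subunits, among them, of those named by rule, Sdhb (0.45), Cox5a (0.34), Sdhd (0.31), Atp5a1 (0.22), Cyc1 (0.17), Uqcrfs1 (0.086), Ndufs1 (0.058) and Cox8a (0.049). On TPM recomputed without receptor segments, hemoglobin and mitochondrial genes 39 passed between model and control (22 lower, 17 higher) and 40 between QJHTD and control (19 lower, 21 higher), and 45 subunits turned positive, among them Sdhb 0.55, Cox5a 0.44, Sdhd 0.40, Atp5a1 0.31, Cyc1 0.27, Uqcrfs1 0.18, Ndufs1 0.15, Cox8a 0.14, Cox6b1 0.087, Cycs 0.063, Cox6a1 0.035, Cox4i1 0.034, Sdha 0.019 and Atp5g2 0.014. Leaving out also the 10 most abundant genes gave 59 (2 higher) and 54 (2 higher), with 9 subunits turned positive, among them Sdhb at 0.19, Cox5a at 0.083 and Sdhd at 0.046. Quantile normalization gave 70 and 65, with Sdhb at 0.11 and Atp5b at -0.36. These shifts follow from the scale by construction. The all-gene median ran from -0.47 to 0.07. Between model and control, 29.6% of all genes were lower and 30.9% higher after median-ratio rescaling, and 38.6% and 24.9% after quantile normalization. On recomputed TPM these shares were 24.9% and 33.9%, and 43.0% and 21.7% without the 10 most abundant genes too. Between QJHTD and control, in the same order, they were 29.1% and 31.3%, 38.1% and 25.1%, 22.7% and 36.5%, and 41.0% and 22.3%.

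Leaving out 1 library at a time, 68 to 77 subunits passed between model and control, 64 to 75 between QJHTD and control and 0 between QJHTD and model. All that passed were lower. Of all 16080 genes, 8132 to 9023 were lower in the same fits between model and control, and 7611 to 8670 between QJHTD and control. Sdhb ran from -0.20 to 0.029 (above 0 without the third control library) and Atp5b from -0.044 to 0.14 (below 0 without the first control or the first model library). With the replicate number as a block, 73, 69 and 0 passed, where 8839 and 8350 of 16080 genes were lower than in the control in model and QJHTD lungs. Same-numbered libraries deviated together at correlations of -0.10 to 0.09, so the numbers were not taken as pairs. Other choices (pseudocount, filter, 2-group fits, no trend) gave 72 to 74 between model and control, 68 to 71 between QJHTD and control and 0 between QJHTD and model. Of all genes, 8823 to 9069 of 16080 were lower in the model than in the control under the choices other than the filter. With the filter changed it was 6257 of 10617 (mean of at least 5 TPM) and 10255 of 30598 (no filter). Against the control the restricted forms stayed lower, in model and in QJHTD lungs, in each setting fitted, while between QJHTD and model the sign of Cox6a2 and Cox6b2 varied. Isoform ratio differences between model and control ran from -5.43 to -3.40 for Cox8b and from -1.18 to -0.95 for Ndufa4l2.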
